A study of Homo sapiens with 6 samples.

Results

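The measurement described here is the difference between osteosarcoma cells transfected with a vector that expresses the microRNA miR-1 and the same cells transfected with the empty vector. Its members were chosen by label: the miR-1 and miR-null arrays of the cell lines KHOS and U-2OS, which are 4 of the 6 arrays in the series, paired by line. Of 19775 genes named on the array, 12948 were tested. The vectors were miRSelect pEP-miR-1 and miRSelect pEP-miR-Null, delivered with Lipofectamine LTX and Plus Reagent and left for 48 hours. Both lines are established human osteosarcoma lines; KHOS descends from the HOS line by transformation with Kirsten sarcoma virus. The remaining 2 arrays, 1 for each line, are labelled control, and no vector is named for them. RNA from 3 flasks was pooled for each array. Each line and vector therefore has 1 array, and a change within a line has no replicate. The p-values of the miR-1 change set its mean over the lines against an error. That error rests on the disagreement of the lines, with 1 residual degree of freedom, and on 12.2 degrees of freedom borrowed from all genes. It holds no spread between repeat arrays of a line. In bulk RNA, fewer cells that express a gene and less RNA per cell cannot be told apart.

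MicroRNAs are short RNAs that guide Argonaute proteins to messenger RNAs, mostly by pairing of the seed near their 5′ end with sites in the 3′ untranslated region, and the paired messages are then translated less and degraded. miR-1 is the abundant microRNA of heart and skeletal muscle, where it holds down cytoskeletal, signalling and metabolic genes during differentiation, and its level is low in many tumours. A transfected plasmid also meets receptors for foreign nucleic acid, which can induce interferon genes, and stress responses such as heat shock. The empty vector is the control for these effects of transfection.

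The mature sequences are shown because they define which messages the vector's product can pair with. They are RefSeq sequences of GRCh38.p14, written 5′ to 3′, with the seed (bases 2 to 8) in capitals. The same miR-1-3p comes from MIR1-1 at chr20:62554351-62554372 on the plus strand and from MIR1-2 at chr18:21829015-21829036 on the minus strand. In a table of 2370 mature microRNA names, 3 shared its seed, miR-1-3p, miR-206 and miR-613. Counted from the 5′ end, miR-206 differs from miR-1-3p at 4 of 22 positions, namely A11G, A17G, A21G and U22G, all outside the seed. The arm from the other side of the hairpin, miR-1-5p, has another seed.
hsa-miR-1-3p: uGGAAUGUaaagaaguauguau
hsa-miR-206: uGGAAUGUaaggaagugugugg
hsa-miR-613: aGGAAUGUuccuucuuugcc
hsa-miR-1-5p: aCAUACUUcuuuauaugcccau

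The sources used here do not state the insert of the vector, and the array does not read a mature microRNA, so the level of miR-1 reached in the cells was not measured. MIR1-1HG, the host transcript of the MIR1-1 hairpin on chromosome 20, read 6.32 on the miR-null and 6.43 on the miR-1 array of KHOS, and 6.63 then 6.99 on those of U-2OS (log2). Its mean difference of 0.23 did not pass. Of 16 microRNA host genes tested, 0 passed, 8 had a positive mean change and 8 a negative one (50%, against 61.9% of all genes).

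Values are deposited log2 expression values, so a difference of 1 is 2-fold, and a pair of values for a line gives miR-null then miR-1. Within a line the miR-null and miR-1 arrays correlated at 0.996 in KHOS and 0.991 in U-2OS across probe sets, which are not independent. The interquartile range was 3.32 and 3.36 on the miR-null and miR-1 arrays of KHOS but 2.84 and 2.75 on those of U-2OS. The 3′ minus 5′ signal of the ACTB control probe sets, a sign of RNA quality, was 2.89 and 2.90 in KHOS, and 2.64 and 2.49 on the U-2OS pair. The part of these array differences in the results was not tested. Osteosarcoma or mesenchymal markers averaged between 7.95 and 9.48 over the 6 arrays, with VIM and SPARC high throughout. Blood and endothelial markers averaged between 4.35 and 5.23. The epithelial marker EPCAM lay between 8.43 and 8.70 in KHOS, although CDH1, KRT19 and ESRP1 stayed below 5. COL1A2, a collagen chain on the mesenchymal list, was at most 4.67 on all 6 arrays.

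Against the empty vector, the miR-1 vector went with small differences, and no gene passed the test. In limma with cell line as a block, 0 of 12948 genes (0%) passed at a Benjamini-Hochberg adjusted p below 0.05, and the smallest adjusted p was 0.396, for TRIM22, which on the U-2OS vector arrays was read below 5.11, the level that the mean of a tested gene had to reach. An unadjusted p below 0.05 was reached by 589 genes (4.55%), where 647.4 are expected by chance. The median 95% interval of a gene reached 0.35 to either side of its mean change. For a typical gene, smaller changes were thus not told from 0 even without adjustment. After adjustment over 12948 genes larger mean changes did not pass either, such as 1.30 for HSPA6 and -0.99 for TRIM22. The same fit on all probe sets, on quantile-normalized values and without the block called 0 as well. By contrast, letting the prior variance follow the expression level called 20 genes, and testing every gene without a filter on low values called 25, with 11 genes in common. Those 11 were HSPA6, FOS, DNAJB1, RRAD, RASD1, H4C8 and EGR3, with a positive mean change, and TRIM22, TIE1, MX2 and PSMB8-AS1, with a negative one. FOS and RRAD differed in opposite directions in the lines, with negative values in U-2OS. Opposite signs were found for 5 of the 20 and 3 of the 25. These alternatives borrow more from other genes, with 1600 and 111 prior degrees of freedom against 12.2. The exact Mann-Whitney test of the design text cannot go below p = 0.333 with 2 arrays against 2. Over 12948 genes the Pearson correlation of the KHOS change with the U-2OS change was -0.06, and Spearman's was -0.09, as a description only, since genes on 1 array are not independent.

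By at least 1.2-fold, the fold that the design text names, 116 genes (0.896%) were higher and 285 (2.2%) lower with miR-1 in both lines. When each array was centred on its median the split was 187 higher and 153 lower, and after quantile normalization 156 and 196, so the excess of lower genes depends on the scaling. Centring moved the median change of all genes from -0.04 to 0.00. A further 216 genes (1.67%) were higher in KHOS and lower in U-2OS, and 227 (1.75%) the reverse, which makes 443 in opposite directions. The changes of the lines correlated at -0.06 across genes. Whether the shared genes outnumber those that unrelated lines would give was not tested. Within KHOS 956 genes (7.38%) were higher and 1533 (11.8%) lower, and within U-2OS 1532 (11.8%) and 2480 (19.2%). With centred arrays KHOS had 1228 higher and 1114 lower, and U-2OS 2087 higher and 1792 lower. At 1.5-fold in both lines, 5 genes (0.0386%) were higher and 7 (0.0541%) lower. At 2-fold, KHOS had 21 genes higher (0.162%) and 5 lower (0.0386%), and U-2OS 15 (0.116%) and 22 (0.17%). The spread over genes, as an SD, was 0.22 in KHOS and 0.28 in U-2OS. For the step from control to the empty vector it was 0.39 and 0.46. At 2-fold that step had 307 genes higher (2.37%) and 27 lower (0.209%) in KHOS, and 129 (0.996%) and 382 (2.95%) in U-2OS. It shares the miR-null arrays with the comparison described here, so the values are set side by side only.

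**Figure D1:**
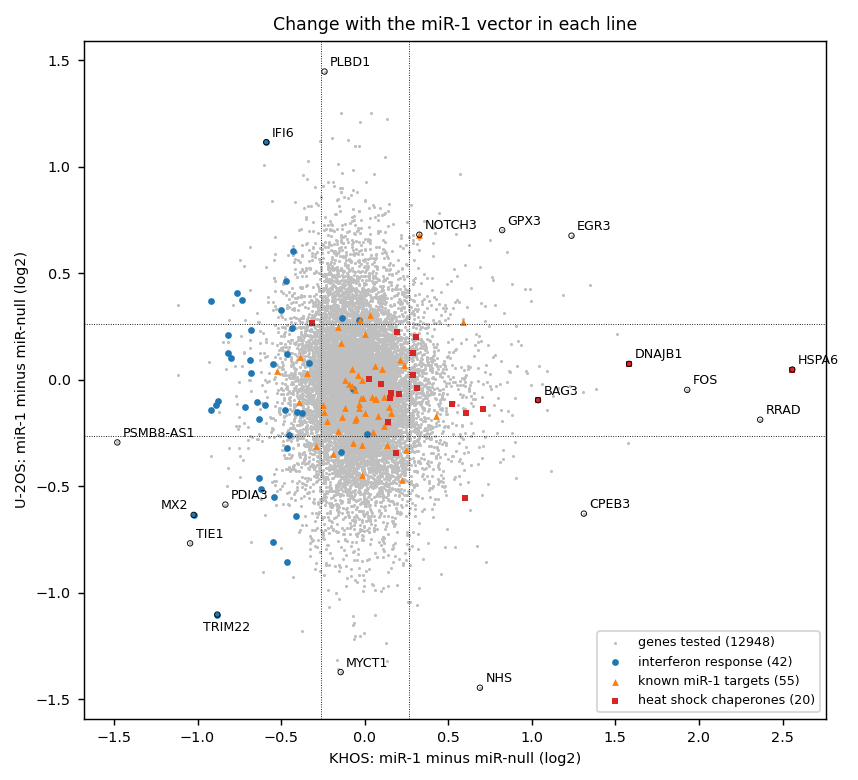
Change with the miR-1 vector (miR-1 minus miR-null, log2) of each of 12948 genes in KHOS (x axis) and U-2OS (y axis), with interferon genes, known miR-1 targets and heat shock chaperones coloured and dotted lines at 1.2-fold. HSPA6, farthest from 0 in KHOS (2.56), lies near 0 in U-2OS (0.05), and heat shock genes spread to the right while interferon genes lie on the left.

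Among the genes higher in both lines, GPX3, a secreted glutathione peroxidase that removes peroxides, read 6.35 on the miR-null and 7.17 on the miR-1 array of KHOS and 6.83 then 7.53 on those of U-2OS. The miR-1 array was the higher in each line, by 0.82 and 0.70, and both miR-1 arrays were above both miR-null arrays. The mean change was 0.76 ± 0.16 (moderated SE, adjusted p = 0.73 in limma), and the other probe set of GPX3 gave 0.39 and 0.20. Here and below, the SE rests on 1 residual degree of freedom of the gene and 12.2 borrowed from all genes. It is therefore mostly not the spread between the lines for that gene. The 12 genes of each shared direction were chosen for a change of the same sign in both lines. That shared sign was thus fixed by the choice, which also enters their SE. EGR3, a zinc finger factor induced within minutes of growth factor signals, read 6.52 then 7.76 in KHOS but 4.05 then 4.73 in U-2OS. Its mean change was 0.96 ± 0.18 (adjusted p = 0.45). In U-2OS EGR3 was below the median of all probe sets, 5.11, on both arrays, so there it was read near the floor of the array.

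PTX3, a pentraxin of innate immunity secreted under inflammatory signals, read 8.57 then 9.20 in KHOS and 6.18 then 6.81 in U-2OS. Both differences were 0.63, while the miR-null minus control difference had been -0.79 in KHOS and -2.63 in U-2OS. In the fit over 6 arrays PTX3 had 0.17 without the KHOS miR-1 array or the U-2OS miR-null array, and 1.09 without either of the other vector arrays. PTGER4, a receptor for prostaglandin E2, read 8.96 then 9.54 in KHOS and 3.83 then 4.56 in U-2OS. OSR2, a zinc finger factor of limb and palate development, read 7.81 then 8.56 in KHOS and 3.91 then 4.56 in U-2OS. For these 3 genes both KHOS vector arrays were above both U-2OS vector arrays. In each line the miR-1 array was the higher, as their choice required. C16orf46, OVOL3, WDR35 (a subunit of the transport complex of cilia), RAB30 (a Golgi GTPase), ZNF276, HTR7 (a serotonin receptor) and BOLA3-DT made up the 12, with mean changes between 0.52 and 0.77. With the median over a gene's probe sets C16orf46 had 0.29, PTGER4 0.28, WDR35 0.39, ZNF276 0.30, HTR7 0.26 and BOLA3-DT 0.31. In 7 of the 12 both lines were above 5.11 on average, and EGR3, OSR2, PTGER4, OVOL3 and HTR7 were not.

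Among the genes lower in both lines, TRIM22, an interferon-induced ubiquitin ligase that restricts viruses, read 10.86 on the miR-null and 9.98 on the miR-1 array of KHOS and 4.72 then 3.62 on those of U-2OS. The miR-1 array was the lower in each line, with no overlap between the lines, but both U-2OS vector arrays were below 5.11, so the U-2OS difference was read near the floor. The mean change was -0.99 ± 0.16 (moderated SE, adjusted p = 0.396 in limma). The KHOS control array read 6.77 and the U-2OS control array 5.37, so the miR-null minus control difference of TRIM22 was 4.09 in KHOS and -0.65 in U-2OS. In the fit over 6 arrays, where the control arrays enter, leaving out the KHOS miR-null array gave TRIM22 0.14 and leaving out the U-2OS miR-1 array gave 0.30. The same omissions gave SAMD9 0.04 and 0.20.

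MX2, an interferon-induced GTPase that blocks nuclear entry of viral genomes, read 11.22 then 10.20 in KHOS and 6.07 then 5.44 in U-2OS. SAMD9, another antiviral factor, read 11.82 then 11.27 in KHOS and 4.95 then 4.18 in U-2OS, but its other probe set was 0.30 higher in U-2OS. GBP3, a guanylate-binding GTPase, read 10.10 then 9.56 in KHOS and 7.91 then 7.36 in U-2OS. All 4 of these interferon genes were lower on the miR-1 array of each line, as their choice required. For TRIM22 and SAMD9 both U-2OS vector arrays were below 5.11. With 1 array left out of the fit over 6 arrays, MX2 ranged from -1.47 (no U-2OS miR-null array) to -0.19 (no KHOS miR-null array), and GBP3 from -1.07 (no KHOS miR-1 array) to -0.02 (no U-2OS miR-1 array). TIE1, a receptor kinase known from endothelium, read 6.37 then 5.32 in KHOS and 5.19 then 4.42 in U-2OS (mean change -0.91 ± 0.16, adjusted p = 0.45). Its U-2OS levels averaged below 5.11. The endothelial markers CDH5 and KDR lay between 3.59 and 4.38 on all 6 arrays.

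PDIA3, a disulfide isomerase that folds glycoproteins in the endoplasmic reticulum, read 11.70 then 10.86 in KHOS and 10.03 then 9.44 in U-2OS. Its mean change was -0.71 ± 0.16 (adjusted p = 0.73). It was well above the floor in both lines, and its other probe sets were lower as well, with -0.45 in KHOS beside -1.12 in U-2OS for 1 of them, and -0.40 beside -0.58 for the other. CKAP4, which shapes sheets of the endoplasmic reticulum, read 11.65 then 11.13 in KHOS and 10.60 then 10.08 in U-2OS, and its other probe sets were also lower. CDK14, a cyclin-dependent kinase that acts in Wnt signalling, read 5.42 then 4.81 in KHOS and 9.16 then 8.26 in U-2OS. In U-2OS another probe set of CDK14 gave -0.86 and the remaining one -0.07. LINC02806, MANSC1, SNCG (gamma-synuclein) and TRIM38 made up the 12, with mean changes between -0.72 and -0.56. In 9 of the 12 both lines were above 5.11 on average, and TRIM22, TIE1 and SAMD9 were not. With the median over probe sets CDK14 had -0.34, TRIM38 -0.22 and SAMD9 -0.42.

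**Figure D2:**
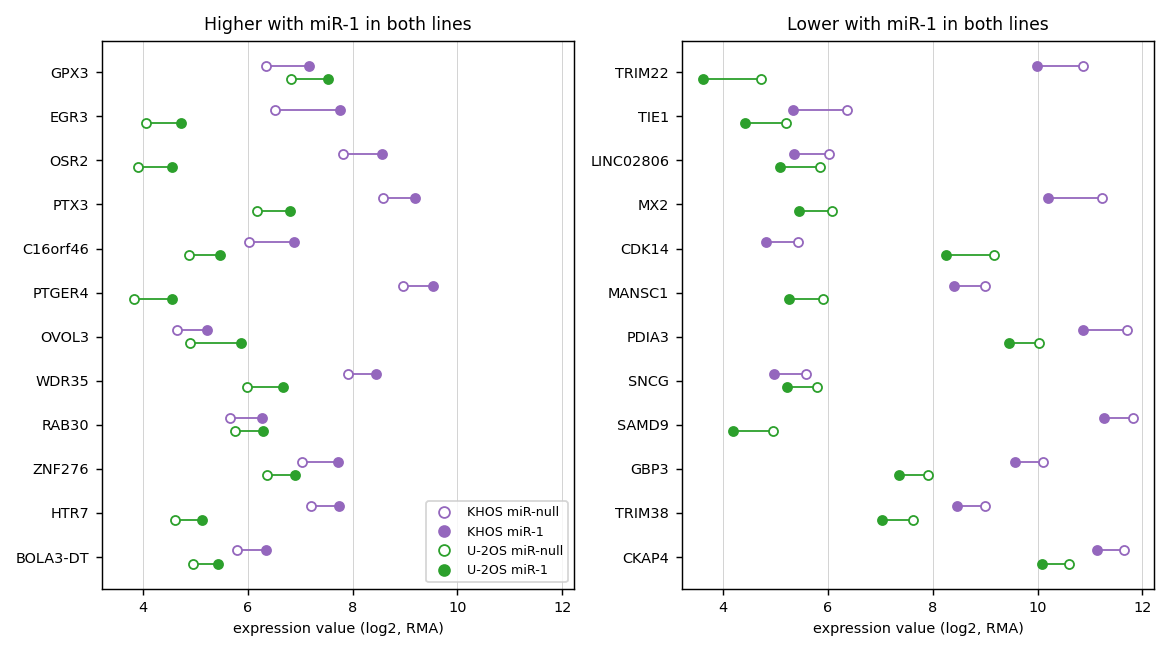
Expression values (log2) on the miR-null (open) and miR-1 (filled) array of KHOS and U-2OS for the 12 genes that were higher and the 12 that were lower in both lines by the largest margins. GPX3 had similar levels in both lines, whereas TRIM22, MX2 and SAMD9 were far higher in KHOS than in U-2OS, where TRIM22 and SAMD9 lay below 5.11.

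Other probe sets of the same genes give a further reading from the same RNA. Of the 116 genes higher in both lines, 40 had others, and 25 of those 55 probe sets (45.5%) were higher in both lines, against 17.1% of all 10041 such probe sets. Of the 285 lower genes, 120 had others, and 97 of 196 (49.5%) were lower in both lines, against 32.0% of all. A majority of other probe sets thus did not repeat the direction in both lines.

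Known targets of miR-1 were read next, since their messages are what the microRNA acts on. Of 64 listed targets 55 were tested and 0 passed, against 0 of all genes. The mean change was negative for 39 (70.9%), where it was negative for 61.9% of all genes, and 23 were lower in both lines (41.8% against 33.8% of all). The median was -0.05, with -0.02 in KHOS and -0.09 in U-2OS, beside -0.04, -0.05 and -0.05 over all genes. By 1.2-fold in both lines, 1 target was lower, PAX3, whose U-2OS values lay below 5.11 on every array, and 2 were higher, NOTCH3 and EDN1, which were also the only targets with an unadjusted p below 0.05. The lower end of the 95% interval lay above a 1.5-fold decrease for 50 of the 55 (90.9%, near the 88.5% of all genes). These intervals hold no spread between repeat arrays of a line. The lowest bound was -0.64.

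Of 20 targets that act on actin, the cell surface or vesicles, 14 had a negative mean change (70%, against 61.9% of all genes, median -0.07). TWF1, the actin monomer-binding protein twinfilin, is a target often used to read out miR-1. It read 11.31 on the miR-null and 11.28 on the miR-1 array of KHOS and 11.40 then 11.29 on those of U-2OS. Its mean change of -0.07 had a 95% interval from -0.41 to 0.27. TAGLN2, an actin-bundling transgelin, read 11.54 on both KHOS arrays and 11.47 and 11.68 in U-2OS. The vesicle proton pump subunits ATP6V1A and ATP6V1B2 had mean changes of -0.23 and -0.12, the chloride-proton exchanger CLCN3 had -0.27 and the actin regulator CORO1C -0.20. TPM1, a tropomyosin, was highest of the group at 0.15. When each array was centred on its median the median of these 20 genes was -0.02, so it lay near 0.

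Of 24 targets in signalling and transcription, 16 were higher in KHOS, where 60.1% of all genes were lower. In U-2OS 18 of the 24 were lower (75%, against 58.7% of all genes). Their medians were 0.06 in KHOS and -0.10 in U-2OS. The median of their mean changes was -0.02, or 0.03 with each array centred on its median. MET, the receptor for hepatocyte growth factor, read 11.88 then 11.86 in KHOS and 10.37 then 10.07 in U-2OS. IGF1R, the insulin-like growth factor receptor, read 9.11 then 9.33 in KHOS and 8.10 then 7.63 in U-2OS, higher in the first line and lower in the second. PAX3, a transcription factor of muscle precursors, read 8.50 then 8.21 in KHOS and 4.65 then 4.34 in U-2OS (mean change -0.30 ± 0.16). SOX9, a factor of cartilage formation, had -0.23 and -0.19, VEGFA, the angiogenic growth factor, -0.25 and -0.12, and HDAC4, a histone deacetylase that miR-1 holds down in muscle, 0.11 and -0.08. NOTCH3, a Notch receptor, read 6.21 then 6.53 in KHOS and 6.68 then 7.36 in U-2OS. Its other probe set differed in the opposite direction, by -0.21 and -0.34. EDN1, the endothelin precursor, read 6.40 then 6.98 in KHOS and 6.57 then 6.84 in U-2OS.

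All 11 targets in metabolism and ion channels had a negative mean change, where 61.9% of all genes had one (median -0.09, or -0.04 with centred arrays). However, 3 of the 11 were higher in KHOS and 3 in U-2OS. TKT, a transketolase that shuttles sugars between glycolysis and the pentose phosphates, read 11.99 then 11.46 in KHOS and 10.56 then 10.61 in U-2OS, differences of -0.52 and 0.04. Of 9 pentose phosphate genes tested, 0 passed and 8 had a negative mean change (88.9%, against 61.9% of all genes). H6PD, which starts that pathway in the endoplasmic reticulum, had the most negative mean change of the 9 at -0.36. ADAR, the interferon-induced RNA editing enzyme, had -0.39 in KHOS and -0.10 in U-2OS, and GPD2, the mitochondrial glycerol phosphate dehydrogenase, -0.07 and -0.30. GJA1, the gap junction protein connexin 43, had 0.14 and -0.31, and KCNJ2, a potassium channel, -0.35 and 0.03.

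**Figure D3:**
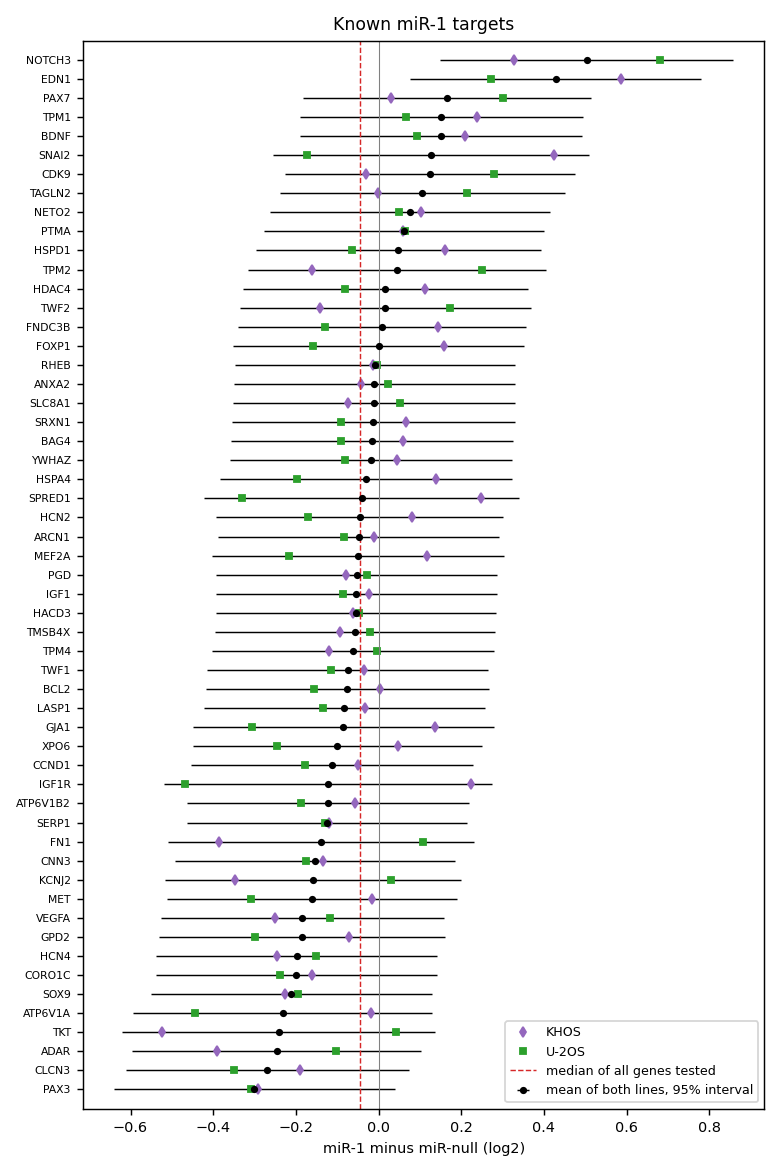
Mean change with the miR-1 vector (log2, black points with 95% intervals from limma) and the change in each line for 55 known miR-1 targets, ordered by mean. The points lie around the median of all genes (dashed), and the intervals of all but NOTCH3 and EDN1 include 0.

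Heat shock chaperones had higher values with miR-1 in KHOS. Of 20 tested, 0 passed, 19 were higher with miR-1 in KHOS and 8 in U-2OS, while of all genes 60.1% were lower in KHOS and 58.7% in U-2OS. By 1.2-fold 11 were higher in KHOS (55.0%, against 7.38% of all genes) and 1 in U-2OS (11.8% of all). The medians were 0.29 in KHOS and -0.05 in U-2OS. HSPA6, an HSP70 induced by proteotoxic stress, had the largest difference of any gene in KHOS. It read 8.34, 10.15 and 12.71 on the control, miR-null and miR-1 arrays of KHOS and 11.55, 13.17 and 13.22 on those of U-2OS. In KHOS the miR-1 array was thus the highest by 2.56 (5.89-fold), and in U-2OS it was level with miR-null, at 0.05. A further probe set of HSPA6 gave 2.64 and 0.18. DNAJB1, the HSP40 partner of HSP70, read 10.29 then 11.88 in KHOS and 13.04 then 13.12 in U-2OS. BAG3, a co-chaperone, read 11.67 then 12.71 in KHOS and 12.94 then 12.84 in U-2OS. On the KHOS miR-1 array these 3 genes stayed below the level that both vector arrays of U-2OS had. The test of the line difference, which uses the control arrays as further arrays without miR-1, gave unadjusted p = 0.09 for HSPA6 and 0.02 for DNAJB1. It passed for 0 genes (0%), with 274 (2.12%) at an unadjusted p below 0.05 and 0.9997 as the smallest adjusted p.

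The heat shock element, where heat shock factor binds, was searched for as GAA, any 2 bases, TTC, any 2 bases and GAA, on both strands, in the 250 bases before each gene's start. It was found in 3 of 17 chaperone promoters (17.6%), against 0.345% of 10449 promoters of tested genes, and in 0 of 24 of immediate early genes. A match is a description of the letters, not of binding. HSPA6 and CHORDC1, a cochaperone of HSP90 that read 11.06 then 11.59 in KHOS and 12.08 then 11.97 in U-2OS, are shown because they hold the element and were among the higher chaperones in KHOS. Capitals mark the matches, which overlap in CHORDC1. The windows are RefSeq sequence of GRCh38.p14, at chr1:161524290-161524539 on the plus strand and chr11:90223050-90223299 on the minus strand.
HSPA6: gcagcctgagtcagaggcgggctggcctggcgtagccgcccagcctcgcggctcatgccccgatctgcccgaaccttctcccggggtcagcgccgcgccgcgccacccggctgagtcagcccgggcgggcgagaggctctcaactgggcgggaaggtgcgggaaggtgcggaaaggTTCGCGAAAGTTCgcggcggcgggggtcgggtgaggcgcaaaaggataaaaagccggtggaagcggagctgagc
CHORDC1: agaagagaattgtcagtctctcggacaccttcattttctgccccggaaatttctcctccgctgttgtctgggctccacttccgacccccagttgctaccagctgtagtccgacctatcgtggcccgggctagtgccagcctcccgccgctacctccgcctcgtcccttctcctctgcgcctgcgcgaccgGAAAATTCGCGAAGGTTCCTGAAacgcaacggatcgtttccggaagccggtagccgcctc

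Immediate early genes, which are transcribed within minutes of a stimulus, also had higher values with miR-1 in KHOS. Of 34 tested, 0 passed, 27 were higher in KHOS and 17 in U-2OS, where 58.7% of all genes were lower, with medians of 0.26 and 0.00. By 1.2-fold 17 were higher and 0 lower in KHOS (7.38% of all genes were higher), and 5 were higher and 5 lower in U-2OS (14.7% each, against 11.8% and 19.2% of all genes). FOS, a subunit of the transcription factor AP-1, read 6.38, 9.58 and 11.51 on the control, miR-null and miR-1 arrays of KHOS and 6.57, 8.59 and 8.54 on those of U-2OS. In both lines the empty vector array was above control. In KHOS the miR-1 array lay above it by a further 1.93 (3.81-fold), and in U-2OS the difference was -0.05. With miR-1 set against the average of control and miR-null, the line difference was 2.57 (unadjusted p = 0.23 in limma's interaction test). EGR1, another induced zinc finger factor, read 12.78 then 13.53 in KHOS and 11.67 then 11.70 in U-2OS. ATF3, a factor of stress responses, read 10.44 then 11.22 in KHOS and 11.10 then 11.45 in U-2OS. ATF3 and EGR3 were the immediate early genes that were at least 1.2-fold higher in both lines. CCN2, a matrix-associated growth factor, had 0.96 and 0.04, JUNB 0.69 and 0.21, and ARC 0.74 and 0.25. TNFAIP3, an inhibitor of NF-kB signalling from the cytokine list, had 1.09 and 0.04.

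Other genes with the largest rises in KHOS were RRAD, a small GTPase of muscle, KLF5, a Kruppel-like factor, and RASD1, a Ras-like GTPase induced by glucocorticoid. DNAJA4, another HSP40, and H4C8, a histone H4 gene, were also among them. RRAD read 5.36 on the miR-null and 7.72 on the miR-1 array of KHOS and 4.86 then 4.67 in U-2OS, where it was below the median of all probe sets. KLF5 read 5.66 then 7.23 in KHOS and 8.44 then 8.14 in U-2OS. RASD1 read 7.80 then 9.31 in KHOS and 5.82 then 6.03 in U-2OS. In U-2OS the differences of the 5 genes lay between -0.30 and 0.44. For genes at least 2-fold higher in KHOS, 9 of 13 other probe sets (69.2%) were at least 1.2-fold higher in KHOS too, against 9.61% of all.

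Most interferon response genes had lower values with miR-1 than with the empty vector in KHOS, where their levels were high on both vector arrays. Of 42 genes tested, 0 passed and 16 had an unadjusted p below 0.05 (38.1% against 4.55% of all genes), all with a negative mean change. In KHOS 41 were lower (97.6% against 60.1% of all genes), 37 of them by at least 1.2-fold (88.1% against 11.8% of all genes), and the median was -0.57. In U-2OS 23 were lower (54.8% against 58.7%), and the median was -0.10. By 1.2-fold 10 were lower there (23.8% against 19.2% of all genes) and 9 higher (21.4% against 11.8%). In both lines 9 were at least 1.2-fold lower (21.4% against 2.2%), but 3 of the 9 averaged above 5.11 in both lines. In opposite directions 7 of the 42 differed by 1.2-fold, where 443 of all 12948 genes did. The median of the mean changes was -0.31, and -0.26 with each array centred on its median. IFNB1, which encodes interferon beta itself, read 9.30 on the miR-null and 8.66 on the miR-1 array of KHOS and 4.49 then 4.30 on those of U-2OS. OAS1, which makes the activator of RNase L, read 8.50, 10.63 and 9.71 on the control, miR-null and miR-1 arrays of KHOS and 5.85, 5.44 and 5.29 on those of U-2OS. IFIT1, an effector that binds foreign RNA, read 13.46 then 12.72 in KHOS and 4.40 then 4.78 in U-2OS. In KHOS the miR-1 array thus lay between control and the empty vector for OAS1, as it did for MX2, while the U-2OS arrays had low values of all 3 genes.

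Some interferon genes with values above the floor in both lines were lower in both. IFIT5, an IFIT family protein, read 11.77 then 11.36 in KHOS and 8.60 then 7.96 in U-2OS. IFI16, a sensor of foreign DNA, read 12.04 then 11.66 in KHOS and 10.20 then 10.04 in U-2OS. ISG15, a ubiquitin-like modifier, read 14.16 then 14.03 in KHOS and 8.64 then 8.93 in U-2OS, higher in the second line. IFI6, a mitochondrial antiviral protein, read 13.06 then 12.47 in KHOS and 6.95 then 8.06 in U-2OS. Its U-2OS control array read 9.02, above both vector arrays. The interaction test sets miR-1 against the average of control and miR-null. For IFI6 it gave a line difference of 0.10 (unadjusted p = 0.94 in limma). It thus does not test the miR-1 minus miR-null difference of IFI6 between the lines.

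The interferon-stimulated response element was searched for as GAAA, any 2 bases and GAAA, on both strands of the same windows. It was found in 19 of 35 interferon gene promoters (54.3%), against 2.24% of 10449. SAMD9 and IFIT5 are shown because they hold it and were lower in both lines, with matches in capitals. For SAMD9 both U-2OS vector arrays were below 5.11, and its other probe set was higher there. The windows of the 2 genes lie at chr7:93117980-93118229 on the minus strand and chr10:89414318-89414567 on the plus strand.
SAMD9: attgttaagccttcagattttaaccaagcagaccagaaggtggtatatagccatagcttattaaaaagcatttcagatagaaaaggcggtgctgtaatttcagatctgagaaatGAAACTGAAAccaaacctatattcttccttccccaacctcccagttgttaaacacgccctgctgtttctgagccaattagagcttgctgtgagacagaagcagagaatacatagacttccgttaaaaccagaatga
IFIT5: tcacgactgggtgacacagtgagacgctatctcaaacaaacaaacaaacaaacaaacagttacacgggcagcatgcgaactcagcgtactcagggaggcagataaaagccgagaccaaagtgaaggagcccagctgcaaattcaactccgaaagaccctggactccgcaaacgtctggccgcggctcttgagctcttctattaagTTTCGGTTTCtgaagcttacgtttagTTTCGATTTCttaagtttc

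Antigen presentation genes, many of which interferon induces, were also lower with miR-1 in KHOS. Of 14 tested, 0 passed, and all 14 were lower in KHOS (100%, against 60.1% of all genes, median -0.42). In U-2OS 11 of 14 were higher (median 0.11), where 58.7% of all genes were lower. PSMB9, an immunoproteasome subunit, read 9.21 then 8.51 in KHOS and 6.83 then 6.54 in U-2OS, and TAP2, a peptide transporter, 8.40 then 8.01 in KHOS and 8.37 then 7.94 in U-2OS. These were the 2 that were at least 1.2-fold lower in both lines (14.3%, against 2.2% of all genes). TAP1 had -0.68 and -0.06 and the non-classical class I molecule HLA-E -0.49 and 0.03. PSMB8-AS1, an antisense RNA at the neighbouring immunoproteasome gene PSMB8, had the largest difference downward in KHOS. It read 7.78 and 6.30 there and 4.09 and 3.79 in U-2OS. PSMB8 had -0.59 and 0.18. Besides PSMB8-AS1, TIE1, MX2 and OAS1, the 8 largest falls in KHOS held genes outside these lists. BATF2 had -1.12 in KHOS and 0.35 in U-2OS, and EVA1B -1.12 and 0.02. SPRY4-IT1 had -0.93 and 0.08, and SNORA72 -0.92 and -0.36.

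**Figure D4:**
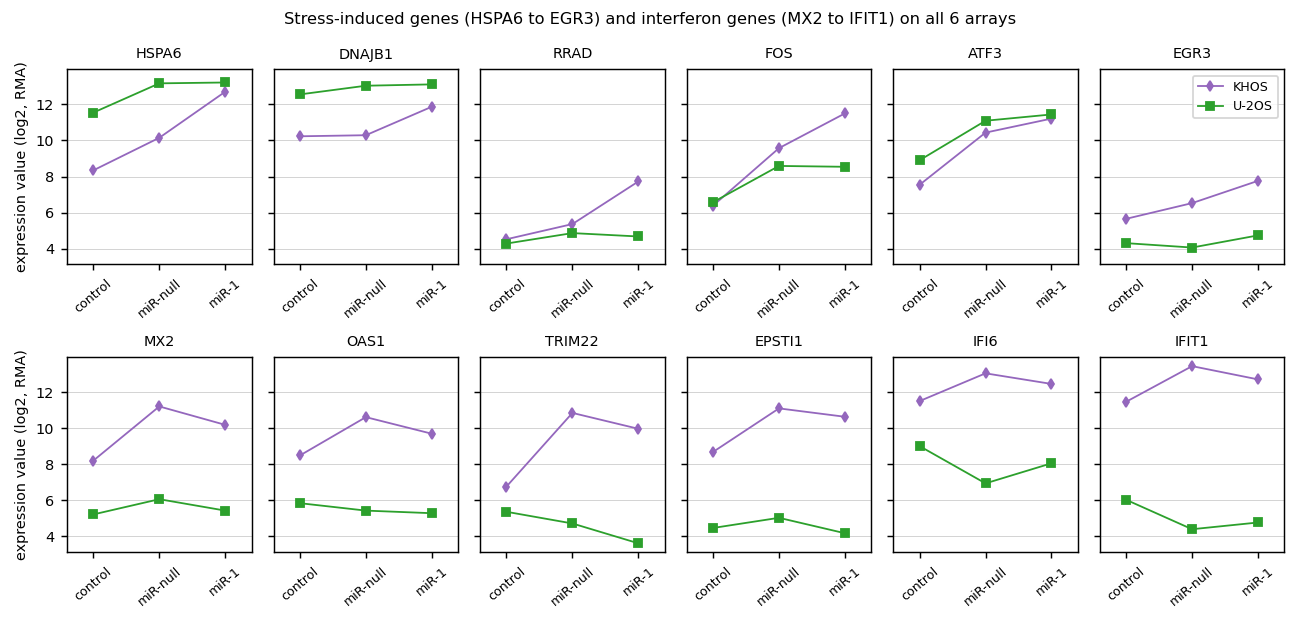
Expression values (log2) on the control, miR-null and miR-1 arrays of KHOS and U-2OS for 6 stress-induced genes and 6 interferon genes, 1 array for each point. In KHOS the stress-induced genes are highest with miR-1 and the interferon genes highest with the empty vector. In U-2OS HSPA6, DNAJB1 and FOS are level between the vectors. There ATF3 (0.35), EGR3 (0.68) and IFI6 (1.11) are higher with miR-1, and TRIM22 (-1.10) and MX2 (-0.63) lower.

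In the endoplasmic reticulum and amino acid stress list, 28 of 36 genes had a negative mean change (77.8%, against 61.9% of all genes) and 0 passed. The median was -0.12, or -0.07 with each array centred on its median. PDIA3, HYOU1 and SEL1L were at least 1.2-fold lower in both lines (8.33%, against 2.2% of all). HYOU1, a chaperone of the endoplasmic reticulum, had -0.27 in KHOS and -0.39 in U-2OS. SEL1L, part of the machinery that removes misfolded proteins, read 10.23 then 9.90 in KHOS and 10.02 then 9.71 in U-2OS. CHAC1 and SESN2, induced by amino acid shortage, had negative values in KHOS (-0.22 and -0.15) and positive ones in U-2OS (0.46 and 0.37).

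Genes of mitosis and G2/M mostly had lower values with miR-1, with more of them past 1.2-fold in U-2OS. Of 43 tested, 0 passed, 36 had a negative mean change (83.7%, against 61.9% of all genes) and 28 were lower in both lines (65.1% against 33.8%). By 1.2-fold 19 were lower in U-2OS (44.2%, against 19.2% of all genes) but 1 in KHOS (2.33%, below the 11.8% of all genes), with medians of -0.15 and -0.08. KIF11, the kinesin that separates spindle poles, read 9.87 then 9.75 in KHOS and 7.86 then 6.99 in U-2OS. TOP2A, the topoisomerase of dividing cells, read 11.14 then 10.52 in KHOS and 9.89 then 9.75 in U-2OS. CDK1, the mitotic kinase, had -0.18 and -0.42, CCNA2, cyclin A, -0.12 and -0.42, and CCNB1, cyclin B, -0.11 and -0.33. CENPA, the centromeric histone, went the other way at 0.07 and 0.39. The median of the list's mean changes was -0.17, and -0.12 after quantile normalization or centring. For DNA replication genes the median was -0.02, and 21 of 36 mean changes were negative (58.3%, near the 61.9% of all genes).

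Of 19 components that carry out microRNA repression, 16 were lower in U-2OS (84.2%, against 58.7% of all genes). By at least 1.2-fold 7 were lower there (36.8% against 19.2%). In KHOS 11 were lower (57.9%, against 60.1% of all genes), 2 by 1.2-fold (10.5% against 11.8%). Of the 19, 0 passed. AGO2, the Argonaute that can cleave targets, read 9.67 then 9.62 in KHOS and 10.79 then 10.49 in U-2OS. AGO4, another Argonaute, read 6.62 then 6.53 in KHOS and 6.43 then 5.90 in U-2OS. DICER1, which cuts hairpins into mature microRNAs, had 0.17 and -0.30. XRN1, the exonuclease that degrades decapped messages, had -0.31 and -0.37. TNRC6C, a GW182 scaffold, read 5.40 then 6.28 in KHOS and 4.93 then 4.76 in U-2OS.

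Of 16 growth factor receptors tested, 0 passed, 12 had a negative mean change (against 61.9% of all genes) and 10 were lower in both lines (62.5% against 33.8% of all genes). TIE1 and EGFR were at least 1.2-fold lower in both. EGFR, the epidermal growth factor receptor, read 9.97 on the miR-null and 9.58 on the miR-1 array of KHOS and 6.99 then 6.64 on those of U-2OS. Its probe sets disagreed, since 1 other gave 0.56 in KHOS and 0.74 in U-2OS. The median of the list was -0.14, but 0.07 when the median over a gene's probe sets was used in place of the brightest. ERBB2 had -0.40 and -0.24 and PDGFRB -0.20 and -0.58. In the TGF-beta and Notch list the medians were 0.15 in KHOS and -0.12 in U-2OS. SMAD6, an inhibitor of BMP signalling, read 5.86 and 4.76 in U-2OS, a difference of -1.10, and had 0.06 in KHOS. DLL1, a Notch ligand, had 0.14 and 0.79.

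Matrix and bone genes held members on both sides, with 0 of 29 and 0 of 17 passing. LOX, which cross-links collagen, read 7.87 then 7.39 in KHOS and 7.80 then 7.21 in U-2OS, with no overlap between the vectors. Its mean change was -0.54 ± 0.16, and both other probe sets were lower in each line. TIMP3, an inhibitor of matrix proteases, had -0.70 and -0.22. MMP9, a gelatinase, read 5.69 then 6.46 in KHOS and 6.86 then 7.33 in U-2OS, and THBS2, a thrombospondin, had 0.84 and 0.31. Of the bone lineage, ID2, an inhibitor of helix-loop-helix factors, read 9.52 then 10.29 in KHOS and 7.67 then 8.15 in U-2OS. MSX2, a homeobox factor of skull and limb, had 0.55 and 0.37, and BMP4, a bone morphogenetic protein, 0.43 and 0.27. SPP1, osteopontin, had -0.77 and -0.22. RUNX2, the master factor of osteoblasts, read 9.85 then 9.83 in KHOS and 4.72 then 4.23 in U-2OS.

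Muscle differentiation genes, of the tissue where miR-1 is abundant, had a median of -0.04 over 23 genes, as all genes had, and 0 passed. MYOD1, the factor that starts the muscle programme, read 5.56 then 5.30 in KHOS and 5.80 then 6.31 in U-2OS. LMOD1, a leiomodin of smooth muscle, read 5.27 then 5.38 in KHOS and 6.50 then 5.52 in U-2OS. CNN1, a calponin of smooth muscle, had -0.29 and -0.47. Ribosomal protein, proteasome and autophagy genes had medians of -0.02, -0.02 and -0.01.

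**Figure D5:**
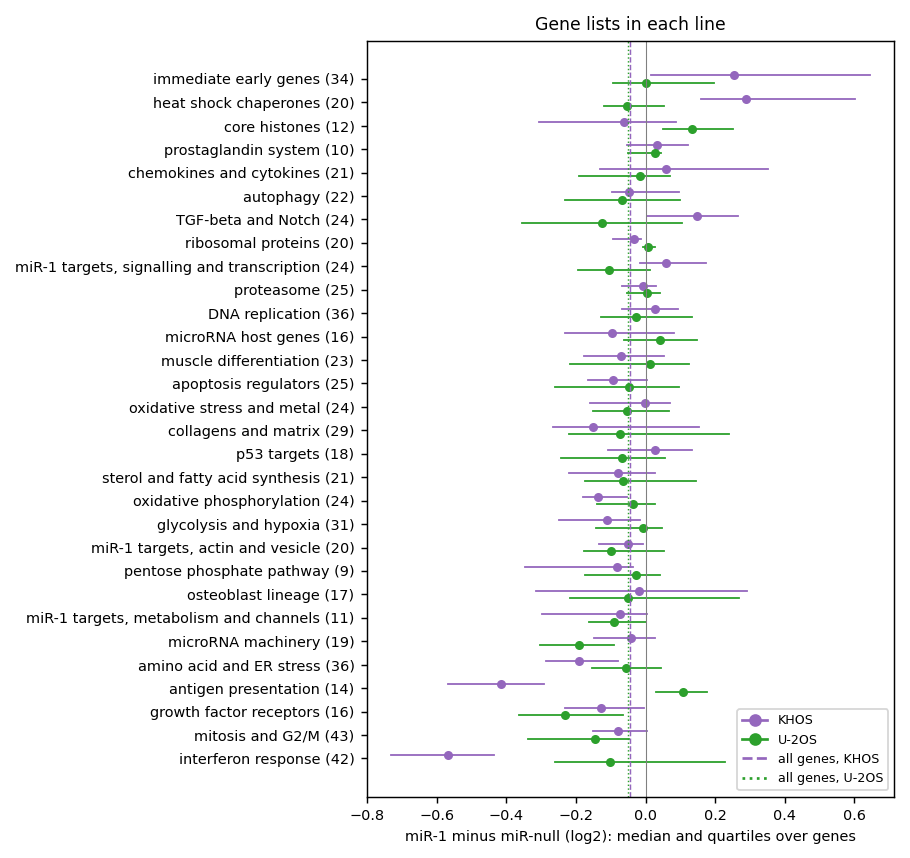
Median (point) and quartiles (line) over the genes of each list of the change with the miR-1 vector (log2) in KHOS and U-2OS, with the number of genes tested in brackets and the median of all genes as vertical lines. Interferon, antigen presentation, heat shock and immediate early genes lie apart from all genes in KHOS, with medians of -0.57, -0.42, 0.29 and 0.26, and are nearer to 0 in U-2OS.

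The largest differences in U-2OS belonged to other genes. PLBD1, a phospholipase-like protein, read 4.17 on the miR-null and 5.62 on the miR-1 array of U-2OS and 9.88 then 9.64 on those of KHOS. INHBB, a subunit of activin and inhibin, read 5.63 then 6.88 in U-2OS and 8.69 then 8.73 in KHOS. ATP2B4, a plasma membrane calcium pump, read 4.92 and 6.17 in U-2OS, where the control array read 6.93. CIMAP1B, MPV17L2, HCRP1, LIMD1-AS1 and STIM1 (a calcium sensor of the endoplasmic reticulum) had between 1.12 and 1.22. Most of these genes were at or near the floor on the U-2OS miR-null array, at or below 5.63 for all but LIMD1-AS1.

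Downward, NHS, a regulator of actin and cell shape, read 5.92 then 4.48 in U-2OS and 6.88 then 7.57 in KHOS. MYCT1, a nuclear protein named after its link to MYC, read 4.67 on control, 8.22 on miR-null and 6.84 on miR-1 in U-2OS, and at most 3.85 in KHOS. SOX2, a stem cell factor, read 6.39 then 5.16 in U-2OS and 7.66 then 7.79 in KHOS, but its 3 other probe sets were higher in U-2OS by 0.15 to 0.70. ETS2, an ETS factor, read 6.29 and 4.97 in U-2OS, and another probe set gave -0.09. UGT8, the enzyme that makes galactosylceramide, read 8.03, 6.97 and 5.76 on the control, miR-null and miR-1 arrays of U-2OS. TBCEL, ZIC1 and PPIP5K2 had -1.36, -1.32 and -1.20, and between -0.16 and -0.03 in KHOS. In U-2OS TBCEL read 5.27 then 3.91 and ZIC1 5.32 then 4.01. On the U-2OS miR-1 array these genes, NHS and ETS2 were below 5.11, so their differences ended near the floor. For genes at least 2-fold lower in U-2OS, 3 of 8 other probe sets (37.5%) were at least 1.2-fold lower, against 23.4% of all, and for genes at least 2-fold higher 3 of 5 were at least 1.2-fold higher (60.0% against 13.7%).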

How the data were processed

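KHOS and U-2OS cells were measured on Affymetrix U133 Plus 2.0 arrays, 1 for each of 3 conditions in each line, with RNA from 3 flasks pooled per array, per the labels' protocols. The authors deposited log2 expression values which the design text says Qlucore 3.2 computed by RMA, a method that the submitters' processing notes list too. The deposited log2 values were used as given. RMA shrinks differences near the floor, and the interquartile ranges, from 2.75 to 3.36, show that the arrays did not share a distribution. The number of arrays limits the precision.

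Of 54675 probe sets, 62 controls were left out, 41091 had 1 gene symbol, 1801 several and 11721 none. By Entrez identifier 41037 matched RefSeq, with 0 symbols updated. Each of 19775 genes was read by its probe set with the highest mean over 6 arrays, and tested where that mean reached 5.11 (log2), the median of all probe sets.

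For the miR-1 change, lmFit and eBayes of limma 3.58.1 (R 4.3.3) were run on the 4 vector arrays with cell line as a block, which leaves 1 residual degree of freedom. A Benjamini-Hochberg adjusted p below 0.05 passed. The pairing by line comes from the labels, since both arrays of a pair are the same cell line. The line difference was an interaction over 6 arrays, with control and miR-null as arrays without miR-1. The scripts were tested on simulated data. Genes were named by rule: the 12 with the largest smaller-line change in each shared direction, the 8 largest in each line and direction, the 4 largest in each opposite pattern, up to 5 of each list by mean change and by change in either line, and all known targets. Members and lists were chosen with earlier results of these data known. Alternatives were quantile normalization, centring, other filters, all probe sets, the median probe set, a prior variance fitted to the expression level, no block, all 6 arrays, another fold and each array left out.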

Additional observations from a re-analysis of the deposited data

Results flagged for a closer look

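For 8 genes the miR-1 array lay above miR-null in one line and below it in the other, by the largest margins of that kind. NHS (KHOS change minus U-2OS change 2.13), CPEB3, a translational regulator that binds messenger RNA (1.94), ZNF83, a zinc finger protein (1.59), and CFAP69, a protein of sperm tails (1.45), were higher in KHOS and lower in U-2OS. IFI6 (-1.70), EMILIN1, a glycoprotein of elastic fibres (-1.61), EBF1, a factor of B-cell development (-1.31), and LINC00163 (-1.31) were lower in KHOS and higher in U-2OS. With 1 array for each line and vector these signs have no replicate. In limma's interaction test of the line difference 0 genes passed, the smallest adjusted p being 0.9997. That test sets miR-1 against the average of control and miR-null, so it does not test the differences printed here. CPEB3 read 6.06 and 7.37 on the miR-null and miR-1 arrays of KHOS and 7.13 then 6.50 on those of U-2OS. EMILIN1 read 6.64 then 6.03 in KHOS and 5.03 then 6.03 in U-2OS. ZNF83 was at or below 4.29 on every KHOS array.

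Outside the genes tested, probe sets for 28S ribosomal RNA were higher on the miR-1 than on the miR-null array by 0.21 in KHOS and 0.21 in U-2OS. Spike-in controls moved in opposite directions, from 10.13 to 9.93 in KHOS and from 11.33 to 11.65 in U-2OS.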

How the results depend on the processing

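The count of genes that passed was 0 in limma with the block for the line and 0 without it (smallest adjusted p 0.396 and 0.99998), and 0 to 0 with any array left out. It was 25 without the filter on low values and 20 with the prior variance fitted to the expression level. No alternative gave a gene for the line difference. The 24 shared genes were chosen for the same sign in both lines, and under several settings their mean change could not differ from the main value. Those settings were no filter, the higher filter, no block, the fitted prior variance, all 6 arrays and either control array left out. Of 318 values under other settings, these included, 314 kept their sign, so the count is no measure of robustness. The exceptions were TRIM22 (0.14) and SAMD9 (0.04) without the KHOS miR-null array and TRIM22 (0.30) and SAMD9 (0.20) without the U-2OS miR-1 array. With any array left out of the fit over 6 arrays, where the control arrays stand in for a missing vector array, 13 of the 24 moved by over 1.5 times and 11 did not. The ranges were -2.29 to 0.30 for TRIM22, -1.51 to 0.20 for SAMD9, -1.07 to -0.02 for GBP3, -1.47 to -0.19 for MX2, -1.27 to -0.25 for CDK14, -1.12 to -0.30 for PDIA3, -0.88 to -0.24 for TRIM38, -0.70 to -0.35 for CKAP4, 0.17 to 1.09 for PTX3, 0.40 to 1.52 for EGR3, 0.24 to 0.90 for RAB30, 0.34 to 1.11 for C16orf46 and 0.33 to 0.72 for HTR7. Leaving out a control array gave the values of the 4 arrays. With the median over probe sets 9 of the 20 that had a value moved by over 1.5 times, all 9 toward 0. For EGR3, OSR2, PTX3, OVOL3, TRIM22, MX2, MANSC1 and GBP3 the value was the main one, so the share among genes whose value differed was higher. With each array centred on its median, 187 genes were at least 1.2-fold higher and 153 lower in both lines. Without the filter 675 genes went in opposite directions, 2408 were lower in KHOS and 2927 higher in U-2OS. With a filter at the 75th percentile the counts were 29 higher and 131 lower in both lines, 175 opposite, 521 higher and 726 lower in KHOS, and 451 higher and 1470 lower in U-2OS. At 1.5-fold they were 5, 7 and 8. Requiring the filter in each line, chosen after seeing the data, kept 11723 genes, with 91 higher, 233 lower and 370 opposite. The median of actin and vesicle targets was -0.020 after centring. That of metabolism and channel targets was -0.044 after quantile normalization, -0.037 after centring, -0.12 with the higher filter and -0.12 with the median probe set. The G2/M median was -0.12 after quantile normalization, -0.12 after centring and -0.080 in KHOS alone. The cause of these shifts was not tested.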

Other observations

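Of 24 oxidative phosphorylation genes, which supply energy in mitochondria, 22 had a negative mean change (91.7%, against 61.9% of all genes), with medians of -0.14 in KHOS and -0.03 in U-2OS, and 0 passed. Of 31 glycolysis and hypoxia genes, 22 had a negative mean change (71.0%, near the share of all genes), with medians of -0.11 and -0.01, and 0 passed. With each array centred on its median, the medians of the mean changes went from -0.064 to -0.016 and from -0.066 to -0.017, close to 0. Among 12 core histone genes, H4C8 read 5.74 and 7.09 on the miR-null and miR-1 arrays of KHOS and 4.83 and 5.27 on those of U-2OS, H2AC6 had 0.59 and 0.28, and H3-3A, a replacement histone, had -0.56 and -0.48. The core histone medians were -0.06 in KHOS and 0.13 in U-2OS. CXCL1, a chemokine for neutrophils, had 0.99 and 0.42, from levels of 5.77 and 4.78 on the miR-null arrays.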
